A study of Mus musculus with 2 samples.

Results

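Epithelial repair and growth factors are described here as 10 genes, Areg, Ereg, Hbegf, Vegfa, Pdgfb, Igf1, Il10, Tgfb1, Osm and Il1rn, chosen by name from the 54838 genes of the count tables. All 10 were found by symbol, and the question was which cells sorted from the irradiated intestine carried each transcript. The study took intestinal immune cells from mice given 10 Gy of X-rays and made 2 single-cell RNA libraries, 1 from WT mice and 1 from DPF2 KO mice, so both genotypes were irradiated and no unirradiated group enters. After digestion, live cells had been sorted with gates on the reporters GFP and tdTomato. The interval after irradiation, the number, age, strain and sex of the mice, the deleted part of Dpf2, the cells that lack it and the cells that carry the reporters were not stated in the sources at hand. With 1 library per genotype there is no replicate check. No test was therefore run, and every difference below compares these libraries and not the genotypes.

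Areg (amphiregulin), Ereg (epiregulin) and Hbegf (heparin-binding EGF-like growth factor) are ligands of the EGF receptor, made as membrane proteins and released by proteases, and they drive division of crypt and wound-edge epithelium. Vegfa, Pdgfb and Igf1 act mainly on vessels, mesenchyme and epithelium. Il10 and Tgfb1 encode cytokines that restrain inflammation, Osm encodes oncostatin M, which acts on stroma and endothelium, and Il1rn encodes the antagonist of the interleukin 1 receptor.

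Areg and Ereg lie next to each other in the same direction on chromosome 5 in GRCm38, Ereg at chr5:91074622-91093646 and Areg at chr5:91139599-91148432, with 45953 bases between them. Hbegf was left out of the promoter search. Promoters of 5 of the 10 factors were taken from the table of RefSeq promoters for GRCm38.p6, namely Areg, Tgfb1, Vegfa, Igf1 and Il1rn. The 250 bases before the start are printed for the 3 of these with a window free of annotated exons of the gene, to show what lies ahead of factors with differing cell sources. The windows, all 5′ to 3′ on the gene's strand, are chr5:91139349-91139598 on the plus strand for Areg, chr7:25686752-25687001 on the plus strand for Tgfb1 and chr17:46032378-46032627 on the minus strand for Vegfa. Capitals mark matches, on either strand, to any of 5 motifs: the cyclic AMP response element TGACGTCA, the AP-1 site TGANTCA, the NF-kB site (GGGA, then 4 bases of any kind, then CC), the TATA box TATAAA and the hypoxia response core ACGTG.
Areg: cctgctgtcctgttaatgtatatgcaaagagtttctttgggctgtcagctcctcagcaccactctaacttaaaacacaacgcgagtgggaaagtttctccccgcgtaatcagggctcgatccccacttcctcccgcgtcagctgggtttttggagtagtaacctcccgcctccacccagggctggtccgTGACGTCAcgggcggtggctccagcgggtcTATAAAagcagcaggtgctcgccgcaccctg
Tgfb1: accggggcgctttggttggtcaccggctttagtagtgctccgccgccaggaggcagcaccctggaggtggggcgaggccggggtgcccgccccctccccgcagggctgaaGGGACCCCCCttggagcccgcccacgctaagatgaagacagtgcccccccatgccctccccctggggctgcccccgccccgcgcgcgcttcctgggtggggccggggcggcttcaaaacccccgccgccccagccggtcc
Vegfa: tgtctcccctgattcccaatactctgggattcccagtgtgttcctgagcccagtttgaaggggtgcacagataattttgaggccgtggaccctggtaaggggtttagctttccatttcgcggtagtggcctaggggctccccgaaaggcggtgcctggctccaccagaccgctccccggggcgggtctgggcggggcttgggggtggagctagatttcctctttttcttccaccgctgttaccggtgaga
The Areg window holds TGACGTCA at 61 to 54 bases and TATAAA at 31 to 26 bases before the start. Among 32851 windows of the same length in the table, TGACGTCA was found in 1.55% and TATAAA in 12.4%. The Tgfb1 window holds an NF-kB match at 140 to 131 bases before the start, a motif found in 17.6% of windows. The printed Vegfa window has none of the 5, of which TGANTCA was found in 6.75% and ACGTG in 16.6% of all windows. Another Vegfa window, chr17:46025164-46025413, overlaps an annotated exon of the gene and is not printed. It holds a match to ACGTG at 211 to 207 bases before its start. An NF-kB match can hold ACGTG within it. The GC content was 75.2% for Tgfb1, 59.2% for Vegfa and 57.2% for Areg, against a median of 52.4% over all windows. A match is a description of the letters and not a site.

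Filtering left 10259 WT cells, at a median depth of 4543 UMIs (unique transcript molecules counted), and 8265 KO cells, at a median depth of 4112. The libraries shared 24 cell barcodes. Dpf2 was at 33.3 UMIs per 1000000 in WT and 19.6 in KO over all cells, which leaves transcript in the KO library, and the counts cannot tell whether it holds the deleted part. Clusters were named from marker genes, and the sort was not purely immune: fibroblasts made up 4.17% of WT and 0.544% of KO cells, and endothelial cells 1.10% and 0.532%. B cells made up 11.0% and 29.9%, non-regulatory T cells 34.0% and 18.1%, monocytes or macrophages 18.1% and 15.1%, and neutrophils 2.55% and 6.24%. Cells without a name made up 1.54% of WT and 5.07% of KO. The sort gates, the digestion and the single library per genotype can each set such shares. Transcripts of Paneth cells, an epithelial type, were spread over all classes: the summed level of their 8 markers in B cells was 4.16 UMIs per 1000000 in WT and 43.0 in KO. An unnamed cluster led by the Paneth genes Lyz1 and Defa30 held 252 KO cells and 1 WT cell. Its leading genes also included Ighd, Pax5 and Bank1 of B cells. Another unnamed cluster led by Defa30 held 41 KO cells and 1 WT cell.

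The level of a factor in a class is given in CPM, its UMIs in all cells of the class together per 1000000 UMIs of the class. Ranges in parentheses are 95% exact intervals that cover counting error only. The supply of a factor is the share of all its UMIs in a library that a class held, so it depends on how many cells of the class were sorted. The factors fell into 3 patterns of source. Ereg and Igf1 were far higher in fibroblasts than in any other class with at least 20 cells per library, Tgfb1 was spread over most classes, and the other 7 had their highest levels in lymphoid, myeloid or endothelial cells. The class with the highest level was the same in both libraries for 7 of the 10 factors. The class that held the most UMIs was the same for 9 of the 10, with a tie for Areg in KO.

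**Figure D1:**
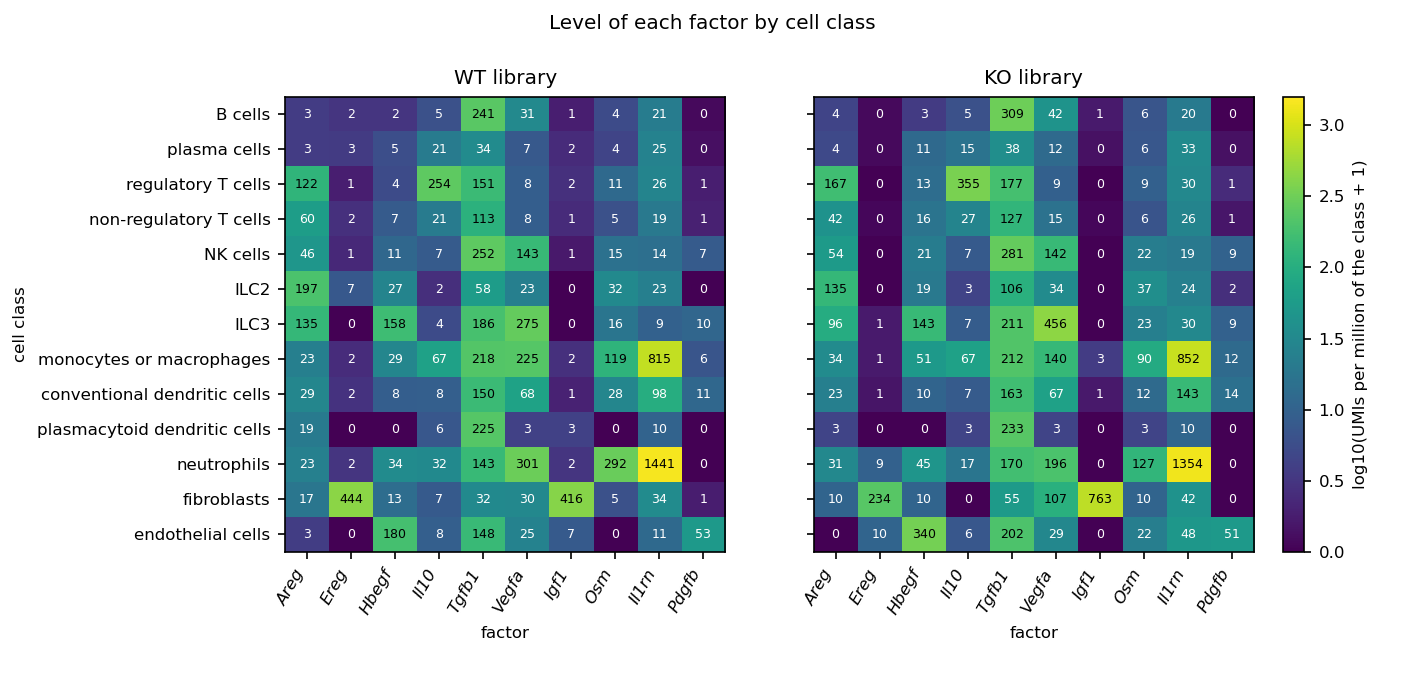
Level of each factor (UMIs per 1000000 UMIs of the class, colour on a log scale) in the 13 classes of 20 or more cells per library, WT and KO side by side. Ereg and Igf1 stand out in fibroblasts, while Tgfb1 is coloured in most classes, from 31.8 CPM in WT fibroblasts to 309 in KO B cells.

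The comparison used the 10 classes of 100 or more cells per library, which made 100 pairs of a factor and a class. Of these, 43 had enough UMIs, meaning 100 or more in total and detection in 5% or more of the cells of the class in WT or in KO. None of the 43 was at least 2-fold higher in KO, where 0.685% of all 54005 gene and class pairs were. Only 1 of the 43, Osm in neutrophils, was at least 2-fold lower, where 0.776% of all pairs were. For this count 10 CPM was added to each level before the ratio. The median log2 ratio of KO over WT was 0.12 over the 43 pairs and -0.01 over all pairs. KO was above WT in 26 of the 43 pairs, against 49.0% of all pairs. All other eligible pairs of a factor and a class thus differed by less than 2-fold on that scale.

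**Figure D2:**
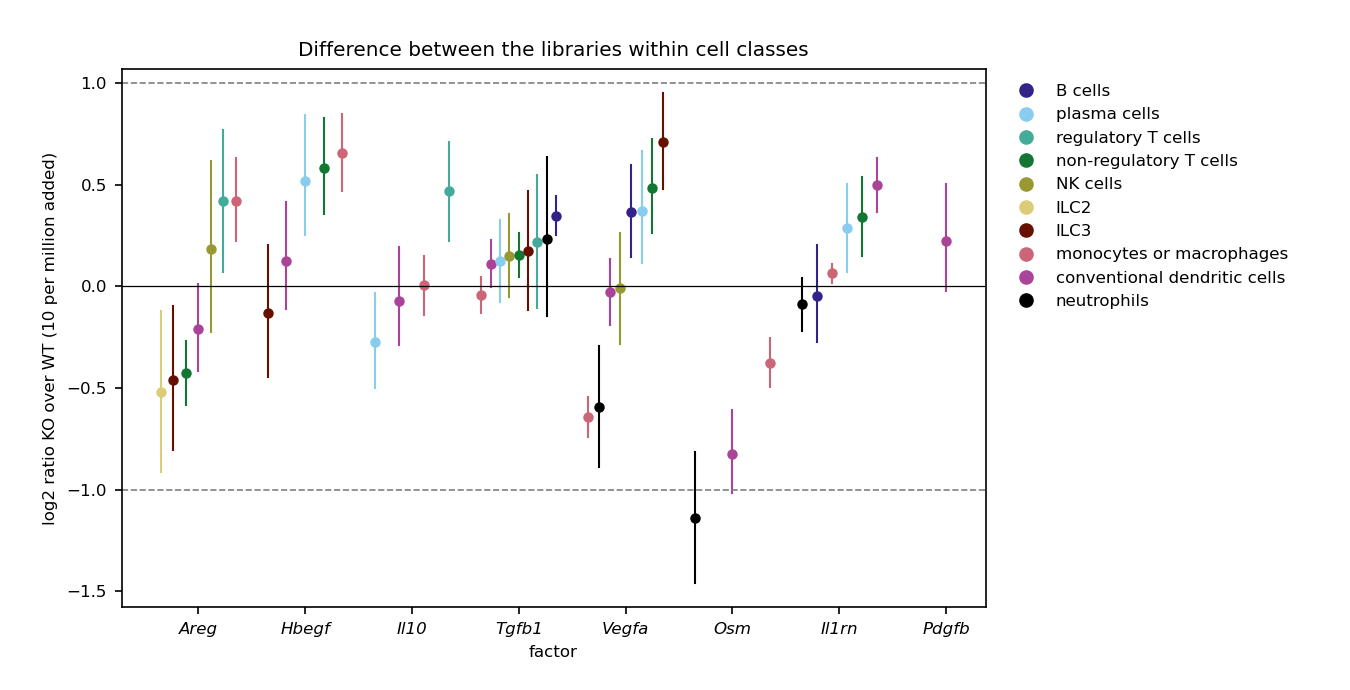
Log2 ratio of KO over WT levels, with 10 per 1000000 added, and its 95% interval for counting error, for each factor in the classes where it had enough UMIs; dashed lines mark 2-fold. The pairs lie on both sides of equality, and Osm in neutrophils is the lowest at a log2 ratio of -1.14.

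Areg was led by innate lymphocytes and regulatory T cells. In ILC2, the innate lymphocytes of type 2 responses, it was at 197 CPM (163 to 236) in WT and 135 (107 to 168) in KO. The ratio of KO over WT was 0.68 (0.51 to 0.92). In regulatory T cells the order was the opposite, with 122 (103 to 144) in WT and 167 (138 to 200) in KO, a ratio of 1.36 (1.06 to 1.76). So the leading class was ILC2 in WT and regulatory T cells in KO, though their intervals overlapped in KO. ILC3, the innate lymphocytes that make interleukin 22, had 135 in WT and 95.8 in KO, a ratio of 0.71 (0.54 to 0.93). NK cells were lower in both libraries, at 46.5 and 54.1. B cells, at 2.71 and 3.51, and plasma cells, at 2.75 and 4.09, had the lowest levels of the immune classes compared.

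Non-regulatory T cells carried Areg at 59.7 CPM (56.0 to 63.5) in WT and 41.8 (37.1 to 46.9) in KO, a ratio of 0.70 (0.61 to 0.80). In cells with Xist, the transcript of the silenced X chromosome, the levels were 50.3 and 38.1, and in cells with transcripts of the Y chromosome 59.8 and 68.6, so the direction differed between them. Non-regulatory T cells were the largest class in WT and held 51.3% of the Areg UMIs of WT, but 19.5% of those of KO, where monocytes or macrophages held an equal 19.5%. Within them Areg was uneven. The subset with Th17 markers, T cells that make interleukin 17 and are led here by Il17a and Il17f, had 211 (195 to 228) in WT over 559 cells and 109 (91.6 to 128) in KO over 238 cells. In 3 subsets of CD8 T cells the level was between 4.67 and 13.5 in WT and at most 3.62 in KO. In WT, the Th17 subset was therefore as rich in Areg as ILC2, within counting error.

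Few cells held most Areg molecules. In ILC2, 37.2% of WT cells and 33.3% of KO cells had an Areg UMI, and the richest 10% of cells held 61.9% and 60.8% of the UMIs. Cells with at least 1000 UMIs were then thinned to 1000 each, and shallower cells were left out of all thinned shares. After thinning, the shares of ILC2 with an Areg UMI were 13.2% and 10.6%. In B cells, which stand here for background, they were 0.179% and 0.123%, with unthinned medians of 3542 and 3345 UMIs per cell. ILC2 lie far above that background in both libraries.

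The direction of the Areg differences was not steady. Both libraries held cells with Xist and cells with Y-linked transcripts, and levels were also taken in each kind alone. In regulatory T cells with Xist, Areg was at 181 CPM in WT and 143 in KO. In those with Y-linked transcripts it was at 62.0 and 214. The regulatory T cell difference thus ran in opposite directions in these cells, which number between 28 and 85 per library. In ILC2 it was lower in KO in both, with 189 and 51.5 in Xist cells and 171 and 160 in Y cells. The ILC2 log2 ratio of -0.52 turned to 0.90 when called doublets were kept and to 0.09 when cells were thinned.

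In myeloid cells Areg was lower than in ILC2. Monocytes or macrophages had 23.1 CPM (20.1 to 26.4) in WT and 34.3 (30.4 to 38.5) in KO, a ratio of 1.48 (1.24 to 1.78). Cells with an Areg UMI, after thinning, made up 2.13% and 2.12%. In Xist cells the class levels were 30.6 and 27.5, and in Y cells 15.2 and 31.3. Xist and Y cells thus differed in direction, and cells with neither or both kinds of transcript are in neither value. Macrophages led by Mmp13 and Pf4 with C1q genes, called C1q macrophages here, had no Areg UMI in WT and 6.76 CPM in KO. Conventional dendritic cells had 28.5 and 23.3.

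A small group of cells with epithelial transcripts carried EGF receptor ligands. They were found by a rule set after the data had been seen, at least 4 of 10 enterocyte marker genes and at least 20 UMIs of them, which 1 WT and 10 KO cells met. Of the KO cells, 9 sat in a shallow unnamed cluster. The 10 cells had 344 UMIs of Epcam and 785 of the keratin gene Krt8, and 16 UMIs of the leukocyte gene Ptprc in 5 cells. They had 206 Areg UMIs in 9 cells, a level of 649 CPM (564 to 744), and so held 14.1% of all Areg UMIs of the KO library. They also had 118 Hbegf UMIs in all 10 cells (9.40% of the library) and 32 Ereg UMIs in 5 cells (23.2%). Il10 and Igf1 had no UMI in them, which allows up to 11.6 CPM. So 10 cells of 8265 held part of the KO library's EGF receptor ligands. The 9 cells of the unnamed cluster enter no class level given here.

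Ereg was a fibroblast transcript in this sort. Fibroblasts had 444 CPM (418 to 471) in WT over 428 cells and 234 (183 to 294) in KO over 45 cells, with a UMI in 45.8% and 37.8% of cells. The ratio was 0.53 (0.41 to 0.67). In the other classes with at least 20 cells per library it was at most 9.63 CPM. Fibroblasts held 91.3% of the WT and 52.2% of the KO Ereg UMIs.

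The fibroblasts were not uniform. A cluster led by Adamdec1, Hmcn1 and Hpse2 had Ereg at 810 CPM (755 to 869) in WT over 158 cells and 421 (324 to 538) in KO over 21 cells. A cluster led by Grem1 and Col8a1 had 186 (163 to 211) over 236 cells and 60.9 (26.3 to 120) over 22 cells. Ereg was lower in KO in each of these clusters. Since fibroblasts were also fewer in KO, Ereg UMIs per 1000 sorted cells were 119 in WT and 16.7 in KO. Of that difference of 102 UMIs per 1000 cells, 75.8 came with the mix of classes and 26.6 with UMIs per cell within classes.

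Hbegf was shared by endothelial, innate lymphoid and myeloid cells. Endothelial cells had 180 CPM (150 to 214) in WT over 113 cells and 340 (279 to 412) in KO over 44 cells, a ratio of 1.89 (1.45 to 2.47). Most of it lay in the cluster led by the venous adhesion genes Selp and Sele, with 214 in WT over 53 cells and 553 in KO over 12 cells. ILC3 had 158 (129 to 191) and 143 (125 to 164), a ratio of 0.91 (0.72 to 1.16), and a UMI in 39.2% and 38.2% of cells. ILC3 were thus the leading immune class for Hbegf in both libraries, with levels that overlap within counting error.

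Monocytes or macrophages held the most Hbegf UMIs, 30.7% in WT and 33.7% in KO. Their level was 28.6 CPM (25.2 to 32.3) in WT and 50.7 (46.0 to 55.8) in KO, a ratio of 1.77 (1.51 to 2.08). Cells with an Hbegf UMI made up 2.31% and 5.33% after thinning, against 0.358% and 0.206% of B cells. Both libraries thus lie above that background. The C1q macrophages had 66.3 in WT and 126 in KO, a ratio of 1.90 (1.20 to 3.16). A shallow finer cluster led by Gm26917 and Lars2, with 66.4% of its cells in this class, had 40.7 and 198, and was not read as a myeloid level. The cells led by Inhba and Spp1 had 34.0 and 55.6. Monocytes led by Chil3 and F13a1 had 14.5 and 11.9, a ratio of 0.82 (0.49 to 1.34). The ratio was thus above 1 in the first 2 of these clusters and below 1 in the last, and the difference between the ratios was not tested. Among Xist cells the class levels were 34.2 and 40.5, and among Y cells 30.0 and 64.4.

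Low levels of Hbegf were also higher in the KO library in some classes that carried little of it, and not in others. The ratio was 1.24 (0.58 to 2.90) in B cells and 1.20 (0.83 to 1.74) in conventional dendritic cells. It was 0.70 (0.29 to 1.61) in ILC2 and 1.97 (1.02 to 3.91) in NK cells. Non-regulatory T cells had 7.33 CPM in WT and 15.9 in KO, a ratio of 2.17 (1.66 to 2.84). Plasma cells had 4.84 and 11.3, a ratio of 2.33 (1.58 to 3.42). With 10 CPM added, the log2 ratios were 0.58 and 0.52, so neither was counted as 2-fold. After thinning, 0.788% and 1.43% of the T cells and 0.308% and 1.49% of the plasma cells had a UMI, so few cells carry these levels. Hbegf UMIs per 1000 sorted cells were 82.4 in WT and 152 in KO, a ratio of 1.84 (1.69 to 2.01). Without the cells with epithelial transcripts the KO value was 138, while that of Areg was 153 and that of Ereg 12.8.

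**Figure D3:**
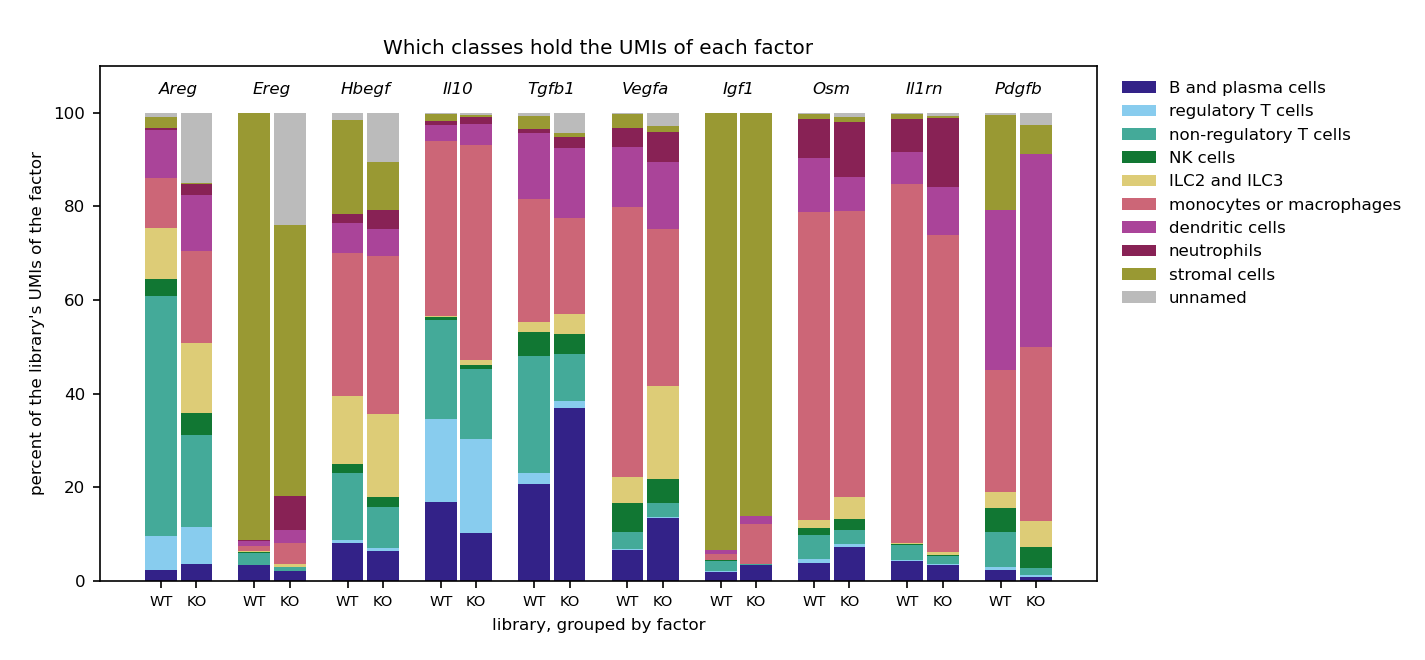
Supply of each factor: the share of its UMIs held by each class in WT and in KO (stacked bars, percent). Stromal cells, which are fibroblasts and endothelial and smooth muscle cells, fill most of the Ereg and Igf1 bars, monocytes or macrophages most of the Il1rn and Osm bars, and the part of Areg held by non-regulatory T cells is 51.3% in WT and 19.5% in KO.

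Vegfa, the main growth factor of blood vessels, was carried by neutrophils, ILC3, monocytes or macrophages and NK cells. Neutrophils had 301 CPM (253 to 355) in WT and 196 (171 to 224) in KO, a ratio of 0.65 (0.53 to 0.81). ILC3 had 275 (237 to 318) in WT and 456 (423 to 492) in KO, a ratio of 1.66 (1.41 to 1.96). So the leading class was neutrophils in WT and ILC3 in KO, though their intervals overlapped in WT. After thinning, 18.6% of WT and 31.0% of KO ILC3 had a Vegfa UMI, against 2.78% and 3.83% of B cells. The ILC3 difference had the same direction in Xist cells, 364 and 406, and in Y cells, 253 and 439. In Xist cells the ratio of 1.11 (0.85 to 1.47) includes equality.

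Monocytes or macrophages had Vegfa at 225 CPM (215 to 235) in WT and 140 (132 to 148) in KO, a ratio of 0.62 (0.58 to 0.67). They held 57.6% of Vegfa UMIs in WT and 33.5% in KO. The cells led by Inhba and Spp1 had 271 and 179, and the Chil3 monocytes 189 and 138. C1q macrophages were low and alike in both, 60.02 and 66.8, with a ratio of 1.11 (0.67 to 1.95). The class held 95 cells of its macrophage cluster in WT and 231 in KO, so its mix moved toward the cells low in Vegfa. Levels were also lower in KO within the Inhba and Spp1 cells and the Chil3 monocytes. A finer cluster that lies only partly in this class had 91.2 and 92.4 (ratio 1.014, 0.77 to 1.34). The shallow cluster led by Gm26917 and Lars2 had 118 and 102 (ratio 0.86, 0.60 to 1.25). It also had Areg at 18.3 in WT and 323 in KO, and Ereg at 49.6 in KO. Its KO levels can thus include the cells with epithelial transcripts, and its Vegfa was not read as a myeloid level. The class was lower in KO in Xist cells (236 and 115) and in Y cells (230 and 147).

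NK cells had Vegfa at 143 CPM (124 to 163) and 142 (122 to 164), a ratio of 0.99 (0.81 to 1.21). Conventional dendritic cells had 68.3 and 66.7, and B cells 30.8 and 42.5. In fibroblasts the level was 29.8 in WT and 107 in KO, but the latter rests on 33 UMIs. Vegfa UMIs per 1000 sorted cells were 344 and 422, a ratio of 1.23 (1.17 to 1.29). The KO library thus held more Vegfa per sorted cell while its main supplier had less of it.

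**Figure D4:**
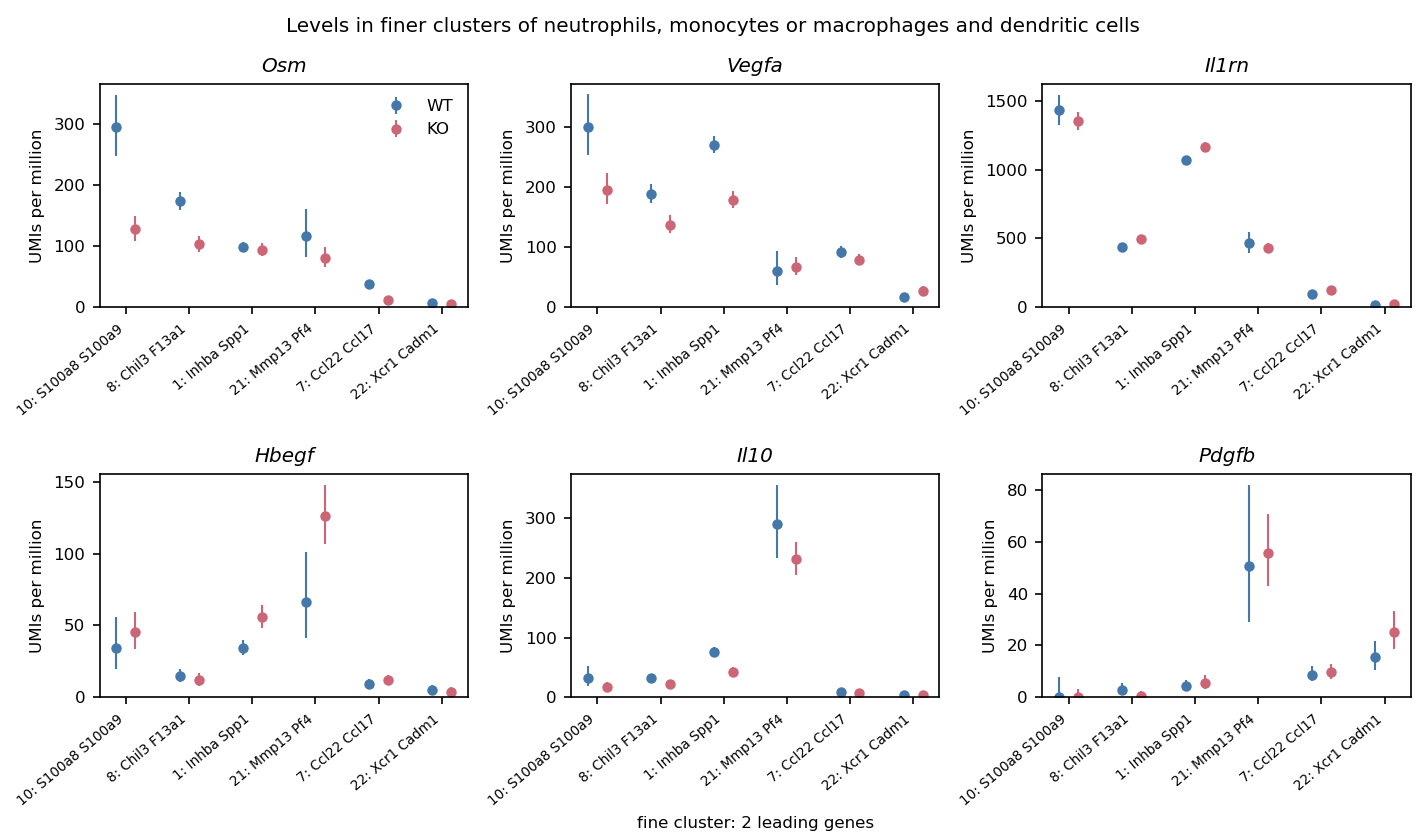
Levels (UMIs per 1000000, linear axes from 0) of Osm, Vegfa, Il1rn, Hbegf, Il10 and Pdgfb in 6 finer myeloid clusters, named by number and 2 leading genes, WT and KO, with 95% intervals for counting error. Finer clusters 12 and 20, with 66.4% and 58.0% of their cells among monocytes or macrophages, are not shown. Of the 6 clusters shown, Hbegf is highest in cluster 21, the C1q macrophages, at 66.3 in WT and 126 in KO, while Vegfa is low there, at 60.02 and 66.8.

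Pdgfb, which recruits pericytes and smooth muscle to vessels, was scarce. Endothelial cells had 53.4 CPM (37.8 to 73.3) in WT from 38 UMIs and 51.4 (29.4 to 83.4) in KO from 16. The macrophage cluster reached a like level, 54.1 and 56.1. Conventional dendritic cells had 10.8 (8.46 to 13.6) and 14.3 (11.7 to 17.2), a ratio of 1.32 (0.97 to 1.81). They held the most Pdgfb UMIs, 34.1% in WT and 41.2% in KO. Within them the Xcr1 cluster of type 1 dendritic cells, which cross-present antigen, had 15.4 and 25.3. Monocytes or macrophages as a whole had 6.07 and 11.6, and their macrophage share differed as given above. Neutrophils had no Pdgfb UMI in either library, which allows up to 7.88 CPM in WT and 3.22 in KO.

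Igf1, which promotes growth of epithelium and muscle, came from fibroblasts. They had 416 CPM (392 to 442) in WT and 763 (669 to 867) in KO, a ratio of 1.83 (1.58 to 2.11), with a UMI in 68.2% and 77.8% of cells. The Adamdec1 cluster had 606 and 1211, and the Grem1 cluster 307 and 297. The class ratio was thus carried by the Adamdec1 cluster, which has 21 cells in KO. Fibroblasts held 93.0% of Igf1 UMIs in WT and 86.1% in KO. Of the immune classes, monocytes or macrophages had 1.77 and 2.76 CPM, from 16 and 23 UMIs. The C1q macrophages had 15.8 and 7.61, a ratio of 0.48 (0.15 to 1.83). Igf1 UMIs per 1000 sorted cells were 110 in WT and 33.0 in KO. In the split of that difference the mix of classes gave a fall of 140 UMIs per 1000 cells and UMIs per cell a gain of 63.2. Igf1 and Ereg, both fibroblast transcripts, thus differed in opposite directions per cell.

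Il10, which restrains inflammatory cytokine production, was led by regulatory T cells. They had 254 CPM (226 to 285) in WT and 355 (312 to 403) in KO, a ratio of 1.40 (1.17 to 1.66). A UMI was found in 36.3% and 39.8% of cells, and after thinning in 15.1% and 20.3%, against 1.85% and 1.82% of plasma cells (median depths 8854 and 7658 UMIs). The ratio was above 1 in Xist cells (277 and 445 CPM) and in Y cells (266 and 448). Over 13 other ways of processing that kept Xist and Y cells together, the log2 ratio of 0.47 ranged from 0.40 to 0.80.

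Regulatory T cells were few and held 17.8% of Il10 UMIs in WT and 20.05% in KO. Non-regulatory T cells held 344 Il10 UMIs in WT and 183 in KO, against 289 and 245 in regulatory T cells. Their level was 20.7 CPM and 26.7, a ratio of 1.29 (1.08 to 1.55), in too few cells for the pair to count. The main supplier was monocytes or macrophages, with 37.3% and 45.9%. Their level was 67.0 CPM (61.8 to 72.6) in WT and 67.2 (61.8 to 73.0) in KO, a ratio of 1.003 (0.89 to 1.13). Within the class both clusters were lower in KO. The macrophage cluster had 291 and 223, and the monocyte cluster 58.0 and 40.3. The even class level coincides with the larger macrophage share in KO. Plasma cells had 20.7 and 15.4, and they held 15.2% and 6.14% of Il10 UMIs.

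Tgfb1, a cytokine secreted in latent form and active on nearly all cells, was widely spread. B cells had 241 CPM (227 to 255) in WT and 309 (298 to 320) in KO, a ratio of 1.28 (1.20 to 1.37). NK cells had 252 (228 to 279) and 281 (253 to 311), a ratio of 1.11 (0.96 to 1.29). NK cells led in WT and B cells in KO, though within counting error of each other in both libraries. Monocytes or macrophages had 218 and 212, plasmacytoid dendritic cells 225 and 233, ILC3 186 and 211, and regulatory T cells 151 and 177. Fibroblasts, at 31.8 and 55.2, and plasma cells, at 33.8 and 37.7, were low. Among compared classes, Tgfb1 was higher in KO in all but monocytes or macrophages, and each ratio for pairs with enough UMIs lay between 0.97 and 1.28. B cells held 15.4% of Tgfb1 UMIs in WT and 34.8% in KO. The main supplier changed, from monocytes or macrophages in WT to B cells in KO. In WT, monocytes or macrophages held 1974 UMIs, non-regulatory T cells 1878 and B cells 1156. In KO these classes held 1765, 867 and 2989. Tgfb1 UMIs per 1000 sorted cells were 733 and 1040, of which difference 119 came with the mix of classes and 188 with UMIs per cell.

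Osm had the only 2-fold difference among the factors in compared classes with enough UMIs, on the scale with 10 CPM added. In neutrophils it was at 292 CPM (246 to 346) in WT from 137 UMIs and 127 (107 to 150) in KO from 146 UMIs, a ratio of 0.44 (0.34 to 0.55). After thinning, 19.2% of WT and 11.2% of KO neutrophils had an Osm UMI, against 0.448% and 0.740% of B cells. Neutrophils with Y-linked transcripts had 333 and 105 CPM. Of those with Xist, only 17 were in WT and had no Osm UMI, while KO was at 128. Of all genes with enough UMIs in neutrophils, 2.08% were at least 2-fold lower and 4.50% at least 2-fold higher, the largest shares of any class compared. Neutrophils were the shallowest named class, with a median of 1473.5 UMIs per cell in WT and 1749 in KO. Over 13 other ways of processing that kept both kinds of cells together, the log2 ratio of -1.14 ranged from -1.20 to -0.96. The summed level of 19 dissociation and immediate early genes in neutrophils was 27417 CPM in WT and 21333 in KO. Of these, Egr1 (2551 and 1179), Jun (1146 and 465) and Atf3 (1138 and 562) were at least 2-fold lower in KO. Their part in the Osm difference was not tested.

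Osm was also lower in KO in the other myeloid classes. Monocytes or macrophages, which held 65.8% of Osm UMIs in WT and 61.2% in KO, had 119 CPM (112 to 127) and 89.6 (83.3 to 96.3), a ratio of 0.75 (0.68 to 0.83). The Chil3 monocytes had 173 and 103, a ratio of 0.59 (0.51 to 0.69). The Inhba and Spp1 cells had 98.0 and 94.1, a ratio of 0.96 (0.83 to 1.11). Conventional dendritic cells had 28.2 (24.3 to 32.6) and 11.6 (9.29 to 14.3), a ratio of 0.41 (0.32 to 0.53). With 10 CPM added, the log2 ratio of these dendritic cells was -0.82. Their Xcr1 cluster had 6.72 and 4.13, a ratio of 0.61 (0.22 to 1.57). Another of their finer clusters had 37.9 and 11.9, a ratio of 0.31 (0.23 to 0.43). C1q macrophages had 117 and 80.3, a ratio of 0.69 (0.47 to 1.03). So Osm was lower in neutrophils as a whole, Chil3 monocytes and dendritic cells as a class. In the Xcr1 cluster, the C1q macrophages and the Inhba and Spp1 cells the intervals included equality.

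Il1rn was carried by neutrophils and by monocytes or macrophages at like levels in both libraries. Neutrophils had 1441 CPM in WT and 1354 in KO, a ratio of 0.94 (0.86 to 1.03), and 69.5% and 73.6% of them had a UMI. Monocytes or macrophages had 815 (797 to 834) and 852 (833 to 873), a ratio of 1.05 (1.012 to 1.081). They held 76.7% and 67.8% of Il1rn UMIs. Within them the Inhba and Spp1 cells had 1069 and 1168, the Chil3 monocytes 436 and 499 and the C1q macrophages 464 and 426. Conventional dendritic cells had 98.3 (90.9 to 106) and 143 (134 to 152), a ratio of 1.45 (1.32 to 1.60). Lymphoid classes were between 8.92 and 32.8 CPM. After thinning, 45.6% and 44.8% of monocytes or macrophages had a UMI, against 1.79% and 2.18% of B cells. Il1rn UMIs per 1000 sorted cells were 938 and 1268, a ratio of 1.35 (1.32 to 1.39). Monocytes or macrophages had a higher median depth in KO, 6081 against 4792 UMIs, which enters UMIs per cell but not levels.

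Per 1000 sorted cells, 5 of the factors had more UMIs in KO (Hbegf, Tgfb1, Vegfa, Il1rn and Pdgfb) and 5 had fewer. The intervals for Areg, 0.94 (0.88 to 1.007), and Il10, 0.93 (0.86 to 1.005), include equality, and that for Osm, 0.93 (0.86 to 0.997), lies just under it. For Areg the mix of classes gave a fall of 21.05 UMIs per 1000 cells and UMIs per cell a gain of 9.78. To the latter the unnamed cells, among them 9 KO cells with epithelial transcripts, gave 14.01, and the named classes together a fall. Without the cells with epithelial transcripts, Areg was at 189 UMIs per 1000 cells in WT and 153 in KO, further apart than with them. For Il10 these parts were a fall of 44.9 and a gain of 34.1.

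**Figure D5:**
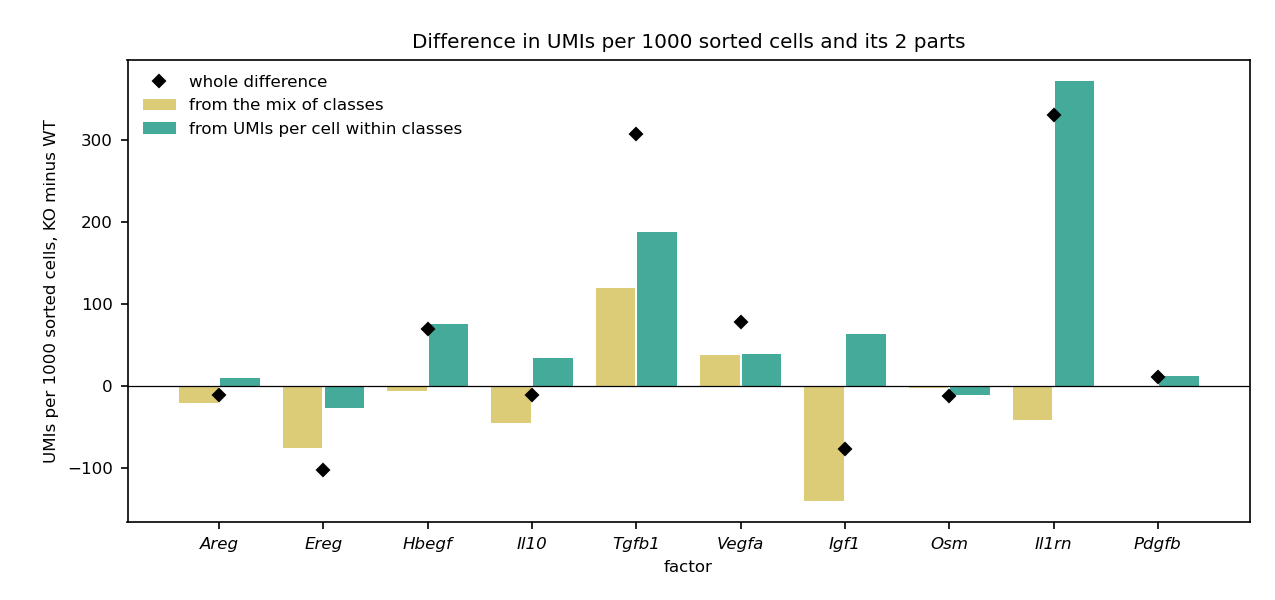
Difference in UMIs per 1000 sorted cells between KO and WT for each factor, split into the part from the mix of classes and the part from UMIs per cell within classes. For Igf1 the parts are -140 and 63.2, and for Il1rn -41.7 and 372.

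The other genes of these pathways were counted in lists, over gene and class pairs with enough UMIs. Of all such pairs, 0.685% were at least 2-fold higher in KO and 0.776% lower. In neutrophils these shares were 4.50% and 2.08%, and in ILC2 1.52% and 0.878%. Of 6 other EGF receptor ligands, 2 pairs counted and 1 was at least 2-fold lower in KO: Nrg1, a neuregulin, in monocytes or macrophages, at 89.1 CPM and 23.0, a ratio of 0.26 (0.22 to 0.30). Of 13 genes that shed or release ligands, 0 of 60 pairs were at least 2-fold higher and 2 were lower, both of Thbs1, which activates latent TGF-beta. Thbs1 was at 3514 and 1579 in monocytes or macrophages and at 186 and 84.6 in conventional dendritic cells.

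Of 19 other growth factors of epithelium and vessels, 2 of 23 pairs were at least 2-fold higher and none was lower. These were Pdgfc in monocytes or macrophages, at 4.75 and 20.3, and Grn in neutrophils, at 40.6 and 91.5. Rspo3, which amplifies Wnt signals in crypt stem cells, was highest in fibroblasts, at 179 and 227. Of 12 other repair cytokines and interleukin 1 antagonists, 1 of 22 pairs was higher and none was lower. It was Il6 in ILC2, at 56.8 and 162. Il22, which acts on epithelium, was highest in ILC3 at 2705 and 1934.

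Of 19 receptors, 2 of 67 pairs were at least 2-fold higher and 1 was lower. Tgfbr1, a receptor of TGF-beta, was higher in monocytes or macrophages (137 and 318) and neutrophils (337 and 803), and Nrp1, a co-receptor of VEGF, was lower in monocytes or macrophages (59.7 and 24.3). Flt1, a receptor of VEGF, was highest in endothelial cells, at 1687 and 1734. Median log2 ratios were 0.12 for the receptors, 0.00 for shedding and release, -0.19 for the growth factors and 0.01 for the cytokines, beside -0.01 over all pairs. The 19 dissociation and immediate early genes had 11 of 178 pairs higher and 3 lower, the 3 all in neutrophils, with a median of 0.22. Their summed level was 5408 and 7218 in regulatory T cells, 6668 and 9584 in non-regulatory T cells and 23907 and 26027 in ILC3. Their part in the differences of Areg, Hbegf, Il10 and Vegfa in these classes was not tested.

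The genes most like each factor were sought over 20 profiles, the 10 compared classes in both libraries, among 15220 genes, by Pearson r of log2 levels with 10 CPM added. The points share libraries and, within a library, any free RNA, so r is a description. Il1rn was most like Hmox1, a heme-degrading enzyme (0.99), and Clec4e, a receptor of myeloid cells (0.99). Areg was most like Cish, an inhibitor of cytokine signalling (0.95), and Vegfa was most like Tnfrsf21 (0.95) and Maff (0.93). Osm was most like Hk3, a hexokinase (0.94), Pdgfb like Olfm1 (0.94), Tgfb1 like Ppp4r1 (0.94), Il10 like Gbp3 (0.90) and Hbegf like Arrdc4 (0.88). For Ereg (Gm48089, 0.87) and Igf1 (Cdh5, 0.85) the profiles hold only low levels, since fibroblasts were too few in KO to be compared.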

How the data were processed

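Live cells sorted from irradiated mouse intestine were measured in 2 droplet libraries (WT, DPF2 KO). The deposited files hold raw counts, UMIs per gene and barcode, per the file headers. The submitters' processing notes name Cell Ranger 7.0.0 and GRCm38. Nothing used here states whether intronic reads were counted.

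Cells with at least 200 genes, 500 UMIs and at most 20% mitochondrial UMIs were kept, and doublets called by Scrublet (637, 5.85%, in WT and 416, 4.79%, in KO) were left out. The WT file held 10958 barcodes and 64786549 UMIs, and the KO file 8794 and 49590755. Both libraries were clustered together with scanpy 1.11.5 and leidenalg 0.10.2 (Python 3.11.15): counts scaled to 10000, 2000 variable genes without the 10 factors, 30 components, 20 neighbours, resolution 1. T cells were clustered again. Clusters were named by markers: at least 3 among the 100 leading genes. A cluster left without a name could take one from 3 markers, each in at least 50% of its cells and 10-fold above the rest. Names of epithelial types were not given, so such clusters stayed unnamed. These rules were set with the clusters in view, and finer clusters (resolution 2) were used for myeloid cells.

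Levels are CPM, UMIs per 1000000 of a class, with exact Poisson intervals for levels and conditional binomial intervals for ratios (scipy 1.17.1). Cells are not replicates, so no test was run. Gene positions come from GENCODE vM21 (54723 of 54838 IDs matched). The members, gene lists and markers were chosen with earlier results of these data known. All members are named; other genes are named if at least 2-fold apart, if the highest of a list in a class, or among the 3 genes most like a member. Genes that say what a group of cells is are named too.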

Additional observations from a re-analysis of the deposited data

How the results depend on the processing

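The counts over factors were recomputed with doublets kept, stricter cell filters, other resolutions, the factors among the variable genes, libraries clustered alone, per-cell means, size factors, thinning, another added constant, no filter on low counts, clusters weighted alike, and Xist or Y-linked cells alone. Leaving out cells with epithelial transcripts was added after the data had been seen. Of the recomputed counts, 49 stayed within 1.5 times and 8 moved. The count of pairs at least 2-fold higher in KO went from 0 to 1 with doublets kept, with each library clustered alone, with thinning and with no filter on low counts, and to 2 with 1 CPM added. The count of pairs at least 2-fold lower went from 1 to 2 with 1 CPM added, and to 0 in Xist cells and to 0 in Y-linked cells, where fewer UMIs were left for the filter. The cause of the other moves was not tested. Of the recomputed values of single factors, 316 stayed within the counting interval and 41 moved. The log2 ratio of Areg in ILC2 changed sign with doublets kept (0.90) and with thinning (0.09), and the other 5 log2 ratios kept their sign in the 12 or 13 alternatives that gave one. Xist or Y-linked cells alone are not among these: Osm in neutrophils had no UMI in the 17 WT cells with Xist and 128 CPM in KO, the opposite direction. No paired analysis was possible because each genotype has 1 library and no replicate numbers. Depth limits the factors with few UMIs, Pdgfb in all classes and Ereg and Igf1 outside fibroblasts.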
